A study of Mus musculus with 167 samples.

Results

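This comparison set the livers of 8 Q175 mice against those of 8 Q20 mice at 6 months of age, and its 16 libraries were all those that the sample titles place in these groups, of 167 in the series. Every mouse was heterozygous on a C57BL/6 background and carried 1 wild-type mouse Htt allele beside a knock-in allele with human HTT exon 1, whose CAG repeat was nominally 175 long in Q175 and 20 long in Q20. Each group held 4 females and 4 males, with no more than a single animal of each sex from a litter, and the labels name no treatment. The Q175 line arose from the Q140 line by a spontaneous expansion of the repeat, the knock-in lies in the mouse Htt locus, and the Q20 mice served as the short-repeat control. Livers of the same genotypes at 2 and 10 months (8 a group, with 4 of each sex except 5 labelled females and 3 males in Q20 at 10 months) and heterozygous Q80, Q92, Q111 and Q140 livers at 6 months were used for comparison, and the 6-month wild-type libraries were left out because their library numbering differed.

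MicroRNAs are short RNAs cut from hairpin precursors, and they lower the output of messenger RNAs that pair with them. Pairing rests mostly on the seed, bases 2 to 8 of the mature strand, so precursors that share a seed are grouped into families. In liver, the hepatocyte microRNAs Mir122 and Mir192 are abundant, the let-7 family is known for restraining growth and for its part in glucose and lipid metabolism, and Mir21a rises in injury and fibrosis. A precursor row in these data pools the reads of both arms of a hairpin.

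One feature of the libraries has to stand before the results. Of the Q175 libraries, 5 were run on lane 1 and 2 on lane 2 with an LB index, and the Q20 libraries with an LB index were spread over lanes 5 to 8. The remaining library of each group had a V index. No lane held LB libraries of both genotypes, so that genotype and lane cannot be told apart here. The main test therefore carried sex and index type. With lane as the batch term in the 16 libraries, only the V libraries set both genotypes side by side. That fit rests on Q175 M1, a male, against Q20 F4, a female, less a sex term. It cannot test the calls, so only its changes are given. With lane and all 48 knock-in libraries of this age, 0 precursors were called (19 at an unadjusted p-value under 0.05). Lane 1 held Q175 alone, so the lane term takes up its 5 libraries. The change in that fit rests on the Q175 libraries with a V index or on lane 2. Lane 2 was linked to Q20 only through Q111 libraries on other lanes.

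The libraries held 2.75 to 5.04 M (1e6) counts in Q175 and 3.42 to 5.50 M in Q20, with means of 4.07 ± 0.698 M and 4.38 ± 0.626 M (SD, n = 8 each, two-sided exact permutation test p = 0.378). No 2 libraries of a group agreed within sampling noise. The labelled sexes were separated, since the summed level of the male-high X chromosome cluster was 4.98 to 11.3 CPM (a count scaled to 1e6 counts per library) in the 8 females and 61.8 to 152 CPM in the 8 males. By FPKM, which scales a count for the length of the row, Mir192 stood first of all rows with 2389180 ± 115311 in Q175 and 2538490 ± 211025 in Q20, and Mir122, the defining hepatocyte microRNA, stood at rank 7. Summed markers of muscle reached 60.2 CPM and those of pancreas 79.5 CPM in Q175 F4, against at most 10.3 and 14.3 CPM in any Q20 library. Their part in the results was not tested, and without Q175 F4 the count of calls given next was 32.

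Of 309 precursors with enough counts to be tested, 41 (13.3%) differed between Q175 and Q20 at an adjusted p-value under 0.05. Of these, 18 (5.83%) were higher in Q175 and 23 (7.44%) were lower, and they held 39 distinct count profiles because Gm23935, Gm24245 and Gm24270 had identical counts. The precursors that were higher included 9 of the let-7 family, Gm24111 with the smallest adjusted p, Mir708 with the largest change, and Mir26a-1, Mir16-2, Mir23b and Mir221. Those that were lower included Mir351, Mir328, Mir484, Mir339, Mir27a, Mir27b, Mir24-2, Mir223 and Mir21a. Log2 changes (Q175 minus Q20) ran from 0.17 to 3.21 among those higher and from -1.45 to -0.22 among those lower, with medians of 0.30 and -0.52, against a median of 0.01 over all 309. Only 2 precursors (0.647%) had CPM that did not overlap between the groups, Gm24111 and Mir328. In 17 of the 41, and in 35 of all 309, all 8 Q175 libraries lay on the same side of the Q20 median. Leaving out 1 library at a time gave 26 calls (without Q175 F3) to 45 (without Q20 M1), and the higher ones numbered 7 (with 28 lower) without Q20 F2, 9 (with 17) without Q175 F3, and 11 without Q20 F4 (27 lower) or Q20 M2 (25 lower). Males alone gave 1 call against 20 in females alone. The called rows were 30 with a Mir symbol (16 higher, 14 lower), 8 with a Gm symbol and 3 without a symbol. The paper itself reported no significant microRNA for Q175 in liver at this age. Its test used DESeq2 with sex and batch as covariates, after outlying counts had been replaced. Its stated controls in general were Q20 and wild-type samples, but its methods list no wild-type liver profiled at this age. The series holds wild-type livers of this age, and whether the paper's test used them is not clear. DESeq2 as an alternative here gave 51 calls. The 2 results come from unlike tests, and what set them apart was not tested.

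**Figure D1:**
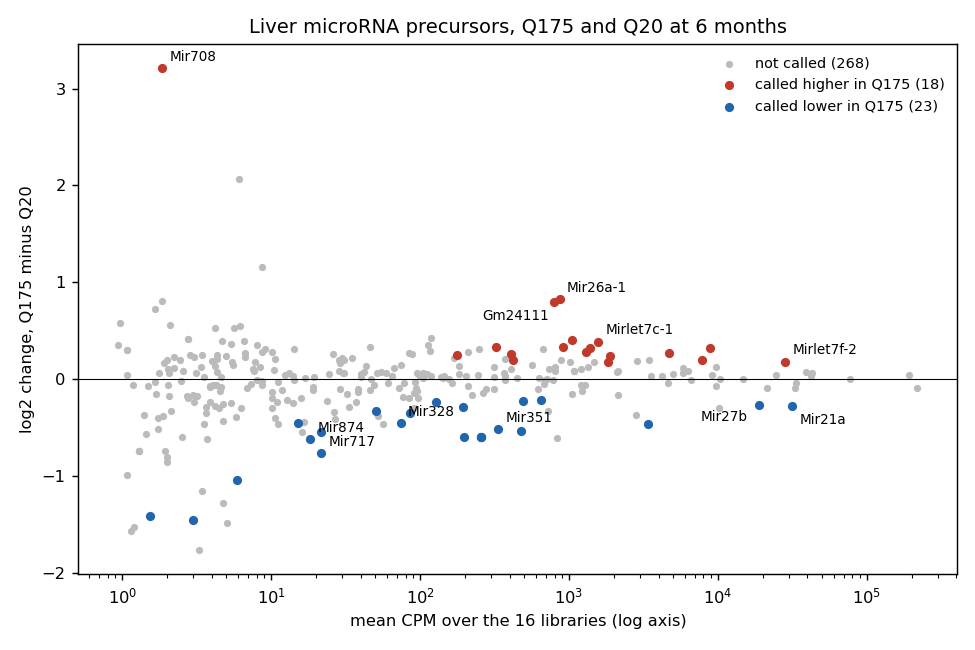
Log2 change, Q175 minus Q20, against the mean CPM over the 16 libraries on a log axis, with each point a precursor. The 18 precursors called higher include Mir708 at 3.21 and a group of abundant let-7 rows between 0.17 and 0.41, while the 23 called lower lie between -1.45 and -0.22.

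The let-7 family is shown first because 9 of its 10 tested precursors rose in Q175, against 5.83% of all precursors tested. The mature strands that lead this group share the seed GAGGUAG, which stands in capitals in the RefSeq sequences (GRCm38.p6) below, written 5′ to 3′. RefSeq gives that seed in 10 tested precursors, which include Mir1961 from outside the let-7 list and lack Mirlet7a-2. Of these, 8 were called higher, and Mir1961 and Mirlet7i were not called.
let-7a-5p (from Mirlet7a-1): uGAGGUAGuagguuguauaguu
let-7b-5p: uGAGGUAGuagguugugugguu
let-7c-5p (from Mirlet7c-1 and Mirlet7c-2): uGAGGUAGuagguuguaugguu
let-7d-5p: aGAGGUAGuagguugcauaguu
let-7f-5p (from Mirlet7f-2): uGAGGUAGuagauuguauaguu
let-7g-5p: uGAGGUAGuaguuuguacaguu
miR-98-5p: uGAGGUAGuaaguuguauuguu

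Mirlet7a-1 (ENSMUST00000083487, GRCm38 chromosome 13, 48538179 to 48538272, minus strand, in an exon of the lincRNA *6720427I07Rik*) measured 7772, 9866 and 12473 CPM in Q175 (lowest, median and highest of 8) and 7312, 7803 and 8670 CPM in Q20. Its log2 change was 0.32 ± 0.06 (SE; adjusted p = 0.0015). The 4 Q175 females, at 10071 to 12473 CPM, lay above every Q20 library, while the Q175 males, at 7772 to 9661 CPM, overlapped the Q20 range. Mirlet7c-1 (chromosome 16, 77599657 to 77599750, plus strand, in an intron of *Mir99ahg*) measured 1532, 1739 and 2170 CPM in Q175 and 1162, 1338 and 1570 CPM in Q20, a change of 0.39 ± 0.07 (adjusted p = 0.00201). All 8 Q175 livers of Mirlet7c-1 were above the Q20 median, and 1 Q175 library lay within the Q20 range.

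The same direction held for the other loci of the family. Mirlet7f-2 (chromosome X, 151912346 to 151912428, plus strand, in an intron of *Huwe1*), with the highest level of the family, measured 25357, 30896 and 35433 CPM in Q175 and 24533, 26431 and 28465 CPM in Q20 and rose by 0.18 ± 0.04 (adjusted p = 0.0164). The changes of Mirlet7a-2, Mirlet7c-2, Mirlet7d, Mirlet7g and Mirlet7b were 0.41, 0.27, 0.24, 0.19 and 0.17 on the log2 scale, and that of Mir98, the other member in *Huwe1*, was 0.26 (adjusted p between 0.0147 and 0.0307). The member that was not called was Mirlet7i (0.07 ± 0.04, adjusted p = 0.352), named after its value was seen. Over the 10 rows the median change was 0.25, against 0.01 for all precursors tested, and their summed level was 5.38% of all counts in Q20 and 6.33% in Q175. In 9 of the 10 rows all 16 libraries had counts that were not whole numbers, and how reads that match several near-identical copies were counted is not given in the sources used here, so the split between copies is uncertain. The copies summed gave the same direction: Mirlet7a-1 and Mirlet7a-2 together were at 11172 ± 1993 CPM in Q175 against 8721 ± 545 CPM, and Mirlet7c-1 and Mirlet7c-2 at 6969 ± 1013 against 5596 ± 318 CPM.

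**Figure D2:**
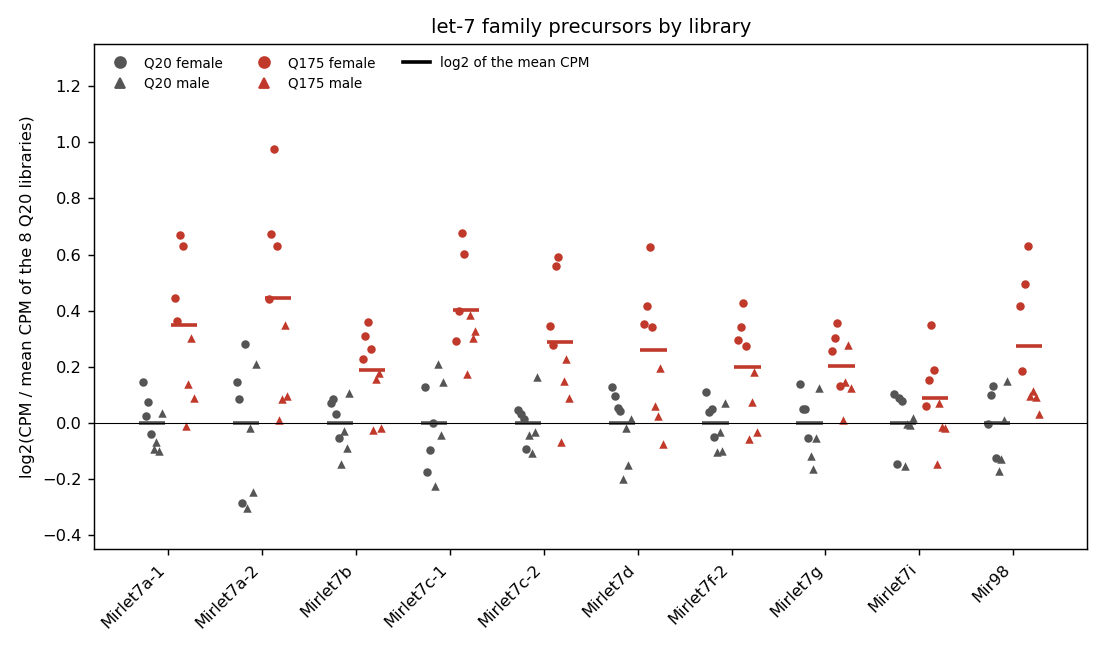
CPM of each let-7 family precursor in each library, as log2 of the ratio to the mean CPM of the 8 Q20 libraries, with circles for females, triangles for males and bars for the mean. The Q175 mean lies above the Q20 mean in all 10 rows, and Mirlet7a-1 of the 4 Q175 females, at 10071 to 12473 CPM, lies above every Q20 library.

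The let-7 changes were given in each sex as well. With females alone the median log2 change of the 10 rows was 0.27 and 3 were called, and with males alone it was 0.16 and 0 were called. The smallest adjusted p-value of the family for the genotype by sex interaction was 0.753. Markers of bile duct and other epithelium moved alongside: all 7 had positive changes (median 0.27, 0 called), and their sum was 516 to 653 CPM in Q175 females against 338 to 451 CPM in Q20 females, and 261 to 640 against 356 to 536 CPM in males. Their part in the let-7 changes was not tested. Without Q175 F3, which had the highest Mirlet7a-1 level, 5 rows were called, without Q20 F2 3 were called, and with offsets adjusted for base composition, an alternative added after the data were seen, 4. With lane as the batch term in the 16 libraries, 9 of the 10 changes were positive with a median of 0.27. That fit rests on 1 library of each genotype and cannot decide the direction. With lane and all 48 knock-in libraries 0 were called, and 9 changes were positive with a median of 0.26.

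Neighbours of let-7 genes from other families did not pass the test. Mir99a beside Mirlet7c-1 had a log2 change of 0.06 (adjusted p = 0.631), and Mir100 beside Mirlet7a-2 one of 0.11 (adjusted p = 0.352). Gm24111 (chromosome 13, 48537825 to 48537921, plus strand) covers Mirlet7f-1 (48537829 to 48537917, minus strand), and Gm25927 (chromosome 17, 17830343 to 17830459, minus strand) covers Mirlet7e (17830352 to 17830444, plus strand). Neither let-7 gene had a row of its own, so a row that carries one name may hold reads of the other, and the values are uncertain. Gm24111 was at 1020 ± 211 CPM in Q175 (716 to 1362) and 578 ± 83.6 CPM in Q20 (454 to 694), without overlap, and rose by 0.80 ± 0.09 (adjusted p = 5.94e-05). Gm25927, which was named after its value was seen, rose by 0.34 ± 0.10 (adjusted p = 0.0325). With lane as the batch term in the 16 libraries, a fit that rests on 1 library of each genotype, its change was -0.11.

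Mir26a-1 and Mir26a-2 encode the same major strand from different chromosomes, and the first was called where the second was not. Their 3p strands differ, which is why all 3 sequences are printed, with seeds in capitals.
miR-26a-5p (both loci): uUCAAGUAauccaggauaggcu
miR-26a-1-3p: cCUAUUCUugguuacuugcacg
miR-26a-2-3p: cCUGUUCUugauuacuuguuuc

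Mir26a-1 (chromosome 9, 119031796 to 119031885, plus strand, in an intron of *Ctdspl*) measured 683, 1147 and 1513 CPM in Q175 and 501, 602 and 779 CPM in Q20, and rose by 0.83 ± 0.12 (adjusted p = 0.000545). Mir26a-2 (chromosome 10, 126995530 to 126995613, plus strand, in an exon of *Ctdsp2*) measured 36541, 42609 and 50382 CPM in Q175 and 38646, 41611 and 43636 CPM in Q20, a log2 change of 0.03 ± 0.05 (adjusted p = 0.717). Summed, the 2 rows were 43956 ± 4557 CPM in Q175 and 41988 ± 1833 CPM in Q20, a difference smaller than the SD of the Q175 livers. Within Q175, the 5 lane 1 libraries of Mir26a-1 ran from 1087 to 1513 CPM and the V library was at 1145 CPM, whereas the lane 2 libraries were at 683 and 803 CPM, against a highest Q20 value of 779 CPM.

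A like split between lanes was seen for Mir708 (chromosome 7, 96249424 to 96249532, plus strand, in an intron of *Tenm4*), which had the largest log2 change of the 41. The 5 lane 1 libraries held 3.22 to 5.63 CPM and the V library 5.46 CPM, and the 2 lane 2 libraries held 0.198 and 0.945 CPM, against 0 to 0.910 CPM in Q20. The counts were 1 to 21 per Q175 library and 0 to 5 per Q20 library, and the fitted change of 3.21 ± 0.54 rests on these few reads. Of the 8 knock-in libraries in which Mir708 reached the minimum of 10 counts, 6 were Q175 and none were Q20 or Q140, so it entered the test through the group in which it is high and its call is given as a description. In 3 of the 41 called precursors (Mir26a-1, Mir708 and Mir331), and in 15 of all 309, both lane 2 libraries lay on the Q20 side of every lane 1 library. Mir331 (-0.54) was named after its values were seen.

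Copies also differed for Mir16, a microRNA known to slow cell division. Mir16-2 (chromosome 3, 69009902 to 69009996, plus strand, in an intron of *Smc4*) measured 1112, 1552 and 2126 CPM in Q175 and 1056, 1202 and 1372 CPM in Q20 and rose by 0.32 ± 0.08 (adjusted p = 0.0187). Mir16-1, which encodes the same miR-16-5p and was far more abundant, had a change of -0.07 ± 0.07 (adjusted p = 0.639), and the sum of both was 11080 ± 2041 and 11011 ± 879 CPM. Mir221 (chromosome X, 19146294 to 19146388, minus strand, between genes), known to promote cell growth, measured 404, 446 and 503 CPM in Q175 and 347, 388 and 418 CPM in Q20 and rose by 0.20 ± 0.05 (adjusted p = 0.019), while Mir222 beside it was at 157 ± 24.2 and 156 ± 16.2 CPM and was not called.

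The clusters of Mir23, Mir27 and Mir24 held calls in both directions. Mir27a and Mir27b, known as regulators of lipid handling, share the seed of their 3p strand, shown in capitals, and both fell.
miR-27a-3p: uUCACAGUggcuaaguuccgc
miR-27b-3p: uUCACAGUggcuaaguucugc
miR-24-3p: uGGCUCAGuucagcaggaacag

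Mir27b (chromosome 13, 63300712 to 63300784, plus strand, in an exon of *2010111I01Rik*) measured 14790, 17382 and 19778 CPM in Q175 and 18548, 20610 and 22520 CPM in Q20, and fell by 0.26 ± 0.07 on the log2 scale (adjusted p = 0.0187). Its neighbour Mir23b (63300484 to 63300557, same strand) measured 794, 958 and 1470 CPM in Q175 and 753, 789 and 847 CPM in Q20 and rose by 0.33 ± 0.09 (adjusted p = 0.0307). Of 42 clusters of tested precursors within 10 kb of each other on the same strand, 12 held a call and this 1 held calls in both directions. Leaving out 1 of the 16 libraries at a time lost the Mir23b call in 10 fits and the Mir27b call in 0. With lane as the batch term in the 16 libraries, a fit that rests on 1 library of each genotype, the change of Mir27b was 0.05, of the opposite sign. On chromosome 8, Mir27a fell by 0.23 ± 0.07 and Mir24-2 by 0.22 ± 0.07 (adjusted p = 0.0438 each), and Mir23a beside them had a change of 0.02. With 1 library left out at a time, the Mir27a call was lost in 10 fits and the Mir24-2 call in 8. Of the 5 listed members tested, 3 were lower and 1 higher. Counts of all 5 were not whole in at least 15 libraries, and Mir24-2 overlaps Mir3074-2 on the other strand.

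Among the single precursors that fell, Mir351 and Mir328 were the clearest. Mir351 (chromosome X, 53053255 to 53053353, minus strand, between genes) measured 242, 261 and 341 CPM in Q175 and 325, 366 and 516 CPM in Q20, and fell by 0.52 ± 0.07 (adjusted p = 0.000208). It is a member of the cluster around Mir322 and Mir503, and of the 6 members tested it was the only 1 called, with Mir322 at a change of 0.04 and Mir503 at 0.21. Mir328 (chromosome 8, 105308364 to 105308460, minus strand, opposite an exon of *Elmo3*) had a mean of 62.8 ± 4.99 CPM over the 8 Q175 livers and of 85.3 ± 9.45 CPM over the 8 Q20 livers (SD), with a highest Q175 value of 68.4 CPM below the lowest Q20 value of 71.8 CPM, and fell by 0.45 ± 0.06 (adjusted p = 0.00033). All counts of both rows were whole.

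Mir484 (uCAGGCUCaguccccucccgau), known for a part in mitochondrial fission (chromosome 16, 14159626 to 14159692, plus strand, opposite an exon of *Marf1*), had a median of 176 CPM and a highest value of 199 CPM in Q175 and ran from 181 to 228 CPM in Q20 and fell by 0.28 ± 0.05 (adjusted p = 0.00317). Mir339, in an intron of *3110082I17Rik*, fell by 0.33 ± 0.06 (adjusted p = 0.0039). Mir874 and Mir676 fell by 0.62 ± 0.14 and 0.24 ± 0.06 (adjusted p = 0.0156 and 0.017). With lane as the batch term in the 16 libraries, a fit that rests on 1 library of each genotype, Mir874 had a change of 0.28. Mir223, a marker of granulocytes, had a median of 80.9 CPM and a highest value of 90.7 CPM in Q175. In Q20 it ran from 64.6 to 135 CPM. It fell by 0.35 ± 0.09 (adjusted p = 0.0212), and in the same lane fit its change was 0.05. Mir223 was the 1 of 3 white blood cell markers that passed the test, and the median change of that list was -0.29. Of its 3 changes, 1 was positive. The summed list was at 119 to 198 CPM in Q175 and 131 to 296 CPM in Q20. By sex it was at 169 to 198 CPM in Q175 females against 219 to 296 CPM in Q20 females, without overlap. In males it was at 119 to 190 against 131 to 198 CPM. Of all 309 single rows tested, 50 did not overlap in females and 21 in males. The part of this list in other results was not tested. In whole liver, fewer cells of a type and less RNA per cell cannot be told apart.

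Mir21a (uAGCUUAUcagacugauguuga, chromosome 11, 86584067 to 86584158, minus strand, in an exon of *Vmp1*) had levels that split by sex in both genotypes. The 4 Q175 females were at 18818 to 20406 CPM and the 4 Q20 females at 22093 to 32663 CPM, without overlap, whereas the males were at 34938 to 41374 and 35364 to 45418 CPM. The fitted change was -0.28 ± 0.08 (adjusted p = 0.0279), and 4 of 8 Q175 livers lay below the Q20 median. Its change was -0.51 ± 0.09 in females alone (adjusted p = 0.0166) and -0.05 ± 0.10 in males alone (adjusted p = 0.848), and the interaction had an adjusted p of 0.337. Across the 41 called precursors, the groups did not overlap in females in 24 and in males in 5, and across all 309 in 50 and 21.

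**Figure D3:**
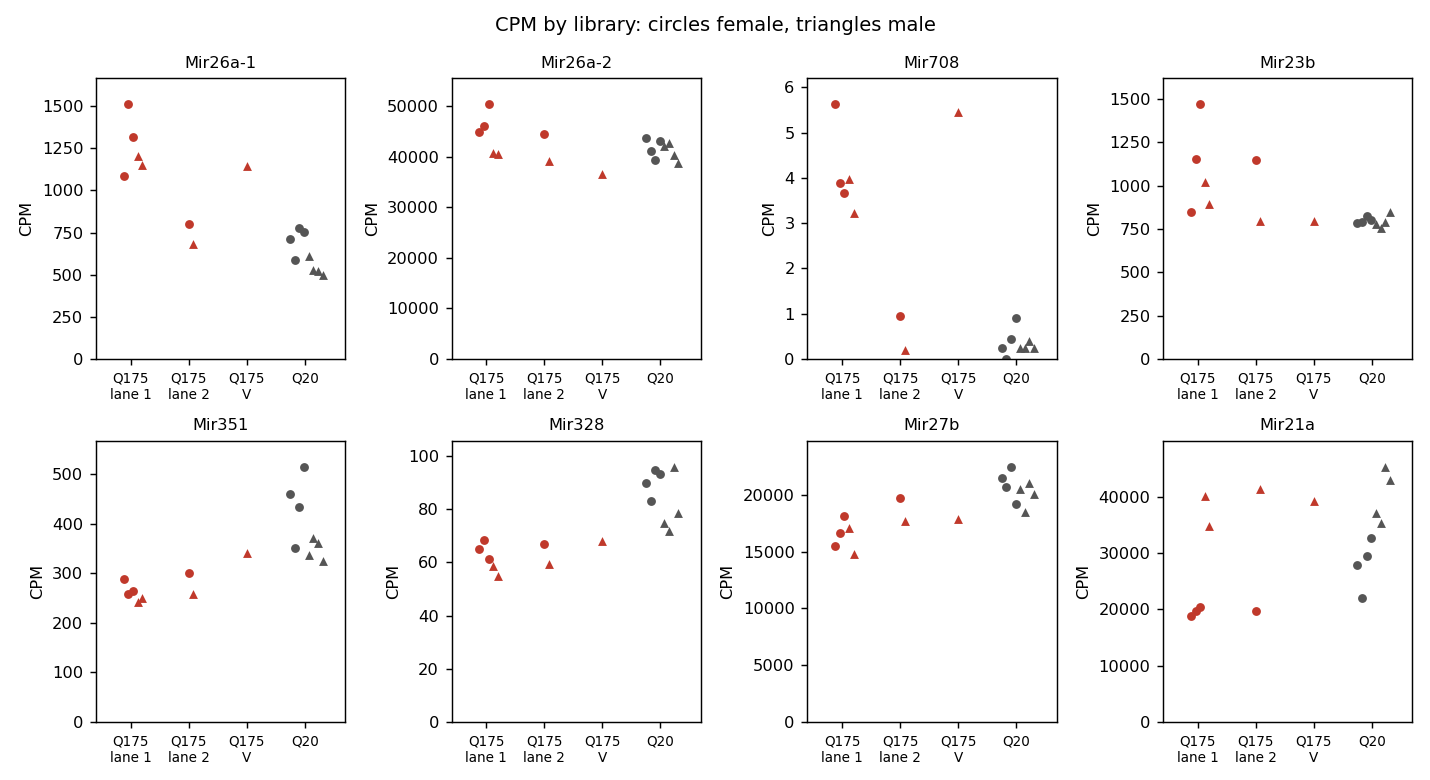
CPM of 8 precursors in each library, arranged as Q175 lane 1, Q175 lane 2, Q175 with a V index and Q20, with circles for females and triangles for males and all axes starting at 0. Mir26a-1 and Mir708 are lower in the 2 lane 2 libraries than in the 5 lane 1 libraries, Mir26a-2 overlaps throughout, and Mir21a of the Q175 females, at 18818 to 20406 CPM, lies below every Q20 library.

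Base composition varied between the called sets. Precursors that rose had a median of 47.1% G and C (n = 18), those that fell 60.8% (n = 20) and those not called 50.4% (n = 243). Of the 22 tested precursors with 65% or more G and C, 9 were called lower and 0 higher, with a median change of -0.31. Of the 68 from 55 to 65%, 4 were called lower and 2 higher. Of the 114 from 45 to 55%, 6 were called lower and 10 higher, and of the 77 under 45%, 1 and 6. Over all 281 precursors with a sequence, 20 were called lower and 18 higher. The Spearman correlation of G and C content with log2 change over 281 precursors was -0.20 (Pearson -0.20), and it was 0.17 and 0.12 in the comparisons at 10 and 2 months. Genes are not independent replicates, and this is given as a description. With offsets adjusted for this content, 18 of 281 precursors were called, among them 17 of the 38 called without the adjustment, and all 38 had the same direction.

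**Figure D4:**
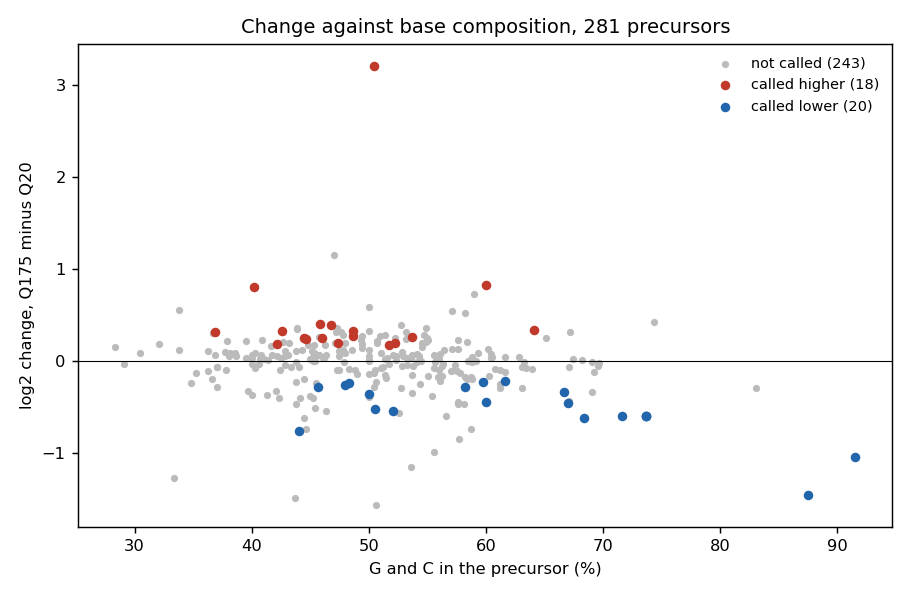
Log2 change, Q175 minus Q20, against the share of G and C in the precursor, for the 281 precursors with a GENCODE sequence. Called higher precursors (red, n = 18) lie at or below 64.1%, and called lower precursors (blue, n = 20) reach 91.6%.

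Lane could be set against a comparison that used no Q175 or Q20 library. In 32 libraries of Q80, Q92, Q111 and Q140, the 4 Q111 males on lane 2 gave a lane coefficient after sex, genotype and index type, in which every lane 2 library was a Q111 male, with 6 of 309 precursors called (1.94%). It was 0.81 for Gm24111 and -1.17 for Mir874 (adjusted p = 0.0029 and 0.0003), in the direction of their Q175 changes. Within Q175, Gm24111 was at 716 to 964 CPM on lane 2 and 926 to 1362 CPM on lane 1. Mir874 was at 12.9 to 16.3 CPM on lane 2 and 10.8 to 16.5 CPM on lane 1. Neither lane held a Q20 library at this age, so these values do not compare the lanes of Q175 with those of Q20. Of the 41 called precursors 30 had the same sign in that coefficient, as did 179 of all 309. For Mirlet7a-1 it was 0.02 and for Mir351 -0.35, neither called.

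A set of 9 rows that fell, of which 7 had distinct counts, followed the same libraries: Gm25732, Gm23935, Gm24245, Gm24270, Mir717, Gm27626, Gm26117 and 2 rows without a symbol, ENSMUST00000175357 and ENSMUST00000175596. In each, Q175 M1, which had the V index, was the highest Q175 library and Q20 M2, M3 and M4 were the 3 highest Q20 libraries. This pattern was picked after the values were seen, and 12 of all 309 rows had it. Gm24245 was at 165, 192 and 295 CPM in Q175 and 178, 280 and 467 CPM in Q20, and Gm25732, which lies near it on chromosome 4 (139338206 to 139338265, plus strand), at 139, 149 and 210 CPM and 154, 214 and 351 CPM. The 9 changes at 6 months ran from -1.45 to -0.46.

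The difference between Q175 and Q20 was set against that at 2 months, over 8 livers a group at each age. The batch term was index type at 6 months but lane at 2 and 10 months, where most libraries were on lanes that held both genotypes, and the 6-month change cannot be told apart from lane. Of 309 precursors, 35 (11.3%) had a 6-month change that differed from that at 2 months by the test of the difference, 11 of them more positive at 6 months. Leaving out 1 library at a time gave 30 to 41 calls, with 20 more positive without Q175 F4 and 7 without Q175 M2. At 2 months alone 19 precursors (6.15%) were called. Since the 41 precursors were picked on the 6-month change, which is part of this difference, the 18 of them among the 35 are given as a description. All 9 rows of the set above were among the 35: each had a positive change at 2 months, from 0.53 to 1.09, and 6 of them were called higher at that age. Gm24245 measured 542, 815 and 1214 CPM in Q175 and 316, 547 and 709 CPM in Q20 at 2 months, so the 6-month and 2-month changes differed by -1.35 (adjusted p = 7.9e-05). Mir26a-1 had changes of 0.83 at 6 months and -0.11 at 2 months (difference 0.87, adjusted p = 0.0006), Mir351 -0.52 and 0.01, Mir328 -0.45 and 0.02, and Mir27b -0.26 and 0.08. The let-7 rows were positive at 2 months in 9 of 10 cases, from -0.02 to 0.25, and none passed the test of the difference between these ages (smallest adjusted p = 0.189).

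At 10 months 0 of 309 precursors (0%) were called for Q175 against Q20 in edgeR (14 at an unadjusted p-value under 0.05), and the test of the difference between 6 and 10 months called 3 (0.971%) in edgeR and 13 in DESeq2. Gm24111 had changes of 0.80 at 6 months and -0.16 at 10 months (difference 0.91 ± 0.15, adjusted p = 0.0007), with 435 to 631 CPM in Q175 and 404 to 690 CPM in Q20 at 10 months. Mir125a and Mir99b, which lie together on chromosome 17 and were not called at 6 months, had changes of -0.16 and -0.06 at 6 months and 0.47 and 0.43 at 10 months (differences -0.67 and -0.53, adjusted p = 0.0247 each). Leaving out 1 library at a time gave 1 call (without Q175 M1 or Q20 F4) to 4. The let-7 rows were positive in 3 of 10 cases at 10 months, from -0.15 to 0.04, and the smallest adjusted p for a difference between 6 and 10 months was 0.324. Of the libraries at 10 months, 1 labelled female carried 193 CPM of the male-high cluster, and without it 3 precursors were called.

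**Figure D5:**
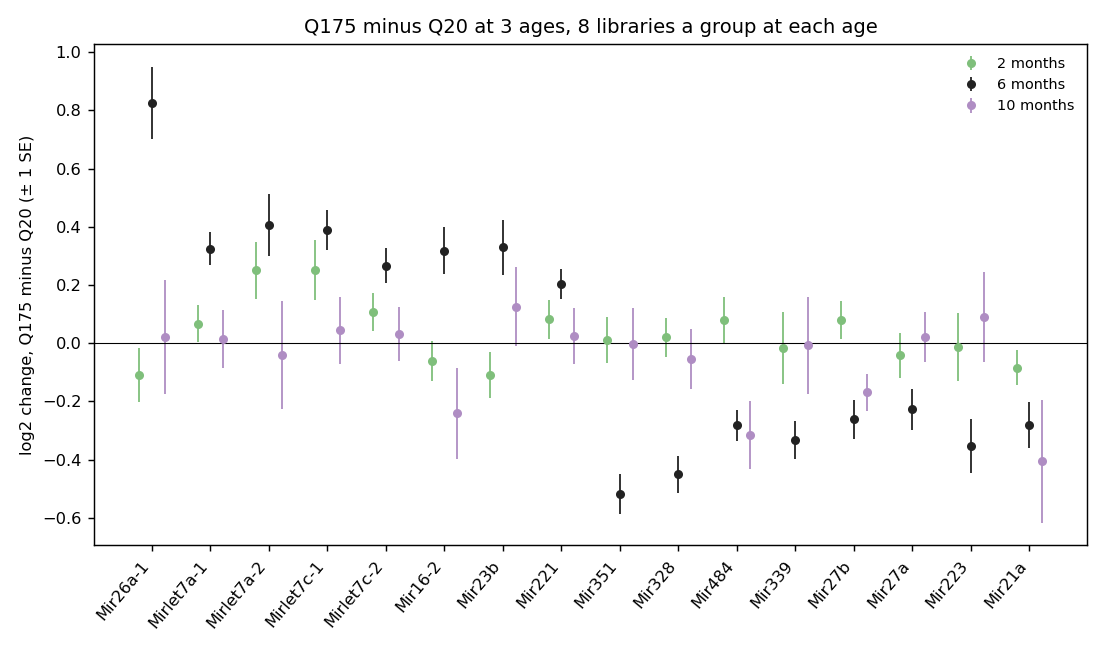
Log2 change, Q175 minus Q20, at 2, 6 and 10 months for 16 called precursors, with bars of 1 SE from each age's own fit. Mir26a-1 and Mir351 are near 0 at 2 and 10 months and far from it at 6 months. Mir484 (-0.28 and -0.31) and Mir21a (-0.28 and -0.41) are negative at 6 and 10 months, but neither was called at 10 months. Mir484 was then at 147 to 238 CPM in Q175 and 153 to 263 CPM in Q20. Mir21a split by sex at 6 months, and Q20 F1 at 10 months, labelled female, carried 193 CPM of the male-high cluster. The part of that library in the 10-month change of Mir21a was not tested.

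A direct comparison with Q140, the line from which Q175 arose, gave 2 calls (0.647%), both higher in Q175. Mir10b, a microRNA beside the *Hoxd* genes, was at 648 ± 182 CPM in Q175 (median 643) and 116 ± 55.2 CPM in Q140 (SD, n = 8 each), without overlap, a log2 change of 2.31 ± 0.33 (adjusted p = 0.00093). In Q20 it was at 150, 857 and 1088 CPM, and the lowest Q20 library was M3. The other call was Mir708 (0 to 1.15 CPM in Q140), which had entered the test through the Q175 libraries. Without Q175 M1 0 were called, with a replicate block 0, and leaving out any other library gave 1 to 3. Of the 8 Q140 libraries 5 had a V index, among them those of all males, and the others were on lanes 7 and 8. No lane held LB libraries of both Q175 and Q140, so line and lane cannot be told apart in this comparison either.

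Against Q20, Q140 gave 16 calls (5.18%), a comparison that shares the 8 Q20 libraries with the one for Q175. The let-7 rows had changes of 0.13 to 0.48 in Q140, with 7 of 10 called, and 0.07 to 0.41 in Q175, and no row passed the direct test between the lines (-0.09 to 0.18, smallest adjusted p = 0.636). Mir328 was -0.60 in Q140 and -0.45 in Q175, Mir351 -0.50 and -0.52, and Mir26a-1 0.19 and 0.83. For Mir26a-1 the direct difference between Q175 and Q140 was 0.65 (adjusted p = 0.0558).

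For the genotype by sex interaction, 0 of 309 precursors (0%) passed the test in edgeR and in DESeq2, with 21 at an unadjusted p-value under 0.05 in each. The smallest adjusted p-value, 0.337, was shared by 7 precursors, Gm25190, Mir101a, Mir133a-1, Mir21a, Mir340, Mir362 and Mir486. Mir133a-1, a muscle microRNA, was at 56.7 CPM in Q175 F4 and 1.38 to 11.9 CPM in the other Q175 libraries.

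Most other fixed lists held few calls. Of 8 hepatocyte, 7 epithelial, 3 red blood cell, 6 stellate cell and fibroblast, and 6 brain markers and 1 each of endothelium, muscle and pancreas, 0 were called, and the most abundant of them, Mir192, had a change of -0.09 (adjusted p = 0.399). The 12 tested members of the miR-17-92 cluster and its paralogs, 6 of the miR-30 family, 4 of the miR-29 family and 10 of the Dlk1-Dio3 imprinted cluster also held 0 calls. In the list for lipid and glucose metabolism 2 of 15 passed, Mir26a-1 and Mir21a, and in that for stress and inflammation 1 of 8, Mir21a. These shares stand beside the 13.3% of all precursors tested. The most abundant members included Mir30a (0.06), Mir29a (0.06), Mir92-1 (-0.09), Mir143 (0.07), Mir126a (0.04), Mir127 (0.13), Mir200b (0.28), Mir150 (-0.29), Mir375 (0.31), Mir128-1 (0.06) and Mir743b (0.05), none of them called.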

How the data were processed

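Small RNA was extracted from whole liver with a Qiagen miRNeasy kit and sequenced as single-end reads in a strand-specific way, and the submitters' processing notes name CASAVA 1.8.2. The authors clipped the reads, aligned them to mm10 with STAR and counted them with HTSeq. The deposited values are an estimated count per precursor and an FPKM, which the authors scaled for length and depth. Many of the deposited counts were not whole, so they were rounded for the tests, although whole counts had been assumed when the tests were chosen. FPKM was used for the order of levels alone. Columns of per-sample values that were not used numbered 0.

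Names, hosts and positions come from GENCODE M21 (GRCm38), in which 1228 of 1626 precursors matched, and mature sequences from RefSeq (GRCm38.p6), which matched 26 of the 41 called precursors. Precursors with at least 10 counts in at least 7 of the 48 knock-in libraries of 6-month mice were tested. The test was the quasi-likelihood test of edgeR (version 4.0.16, under R 4.3.3), which scaled libraries by TMM and carried sex and index type as covariates, with lane in place of index type for 2 and 10 months, and with Benjamini-Hochberg adjustment over all tested precursors. A precursor was called at an adjusted p under 0.05. DESeq2 1.42.0 was an alternative, as were other size factors, no filter, other batch terms, a replicate block, single sexes and leaving out each library. The tests were tried on simulated data.

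Named precursors were the 12 with the smallest adjusted p in each direction, every called member and the most abundant tested member of each fixed list, and the 2 with the smallest adjusted p in the other contrasts. Members and lists were chosen with earlier results of these data known. The precision of a level is limited by the counts, and PCR copies were not told apart.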

Additional observations from a re-analysis of the deposited data

Results flagged for a closer look

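A library stood far from the other 7 of its group, by Dixon's test at a critical value of 0.526, in 12 of 104 groups of 8 tested. Chance flags about 1 in 20 independent groups, but these are not independent: 3 of the 12 are identical rows, and 6 are rows of the set that followed the same libraries. Q175 M1, the Q175 library with a V index, was highest for Gm25732 (210 CPM), for the identical rows Gm23935, Gm24245 and Gm24270 (295 CPM each), for Mir717 (30.6 CPM) and for ENSMUST00000175357 (565 CPM). Q175 F4 was highest for the muscle microRNA Mir133a-1 (56.7 CPM) and for the pancreas microRNA Mir375 (71.0 CPM). In Q20, M2 was lowest for Mir192 (184805 CPM) and highest for Mir92-1 (27638 CPM), and M3 was highest for Mir128-1 (56.9 CPM) and lowest for Mir10b (150 CPM).

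The change between Q175 and Q20 differed between ages by the test of the difference in these precursors. From 6 to 10 months, the 6-month change of Gm24111 was higher by 0.91 and that of Mir125a differed by -0.67. Against 2 months, the 6-month change was higher for Gm24111 (0.69), Mir26a-1 (0.87), Mir708 (2.71, a row that entered the test through the 6-month Q175 libraries), Mir16-2 (0.32) and Mir200b (0.77), the last of which was not called at 6 months. It was lower for Mir351 (-0.59), Mir328 (-0.53), Mir484 (-0.42), Mir27b (-0.40), Gm25732 (-1.24), Gm23935, Gm24245 and Gm24270 (-1.35 each), Mir717 (-1.67) and ENSMUST00000175357 (-1.22).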

How the results depend on the processing

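Of 41 calls at 6 months, a fit gave 43 with RLE size factors, 51 with DESeq2, 42 with robust dispersions, 39 with LB libraries alone, 58 of 1035 with no filter (27.6% higher, against 43.9% in the main test), 18 with GC-adjusted offsets (55.6% higher, an alternative chosen after seeing the data), 17 with all 48 knock-in libraries and index type, 20 in females, 1 in males, and 26 to 45 with 1 library left out. With lane as the batch term 0 were called in the 48 libraries, and 36 of the 41 had the same sign there and in the 16. In the 48, lane 1 held Q175 alone, so the signs rest on the Q175 libraries with a V index or on lane 2. The lane fit of the 16 rests on Q175 M1 against Q20 F4, less a sex term. Its signs are therefore those of 1 library of each genotype. The sign turned for Mir874 (0.28 and 0.23 in the 16 and the 48 libraries), for Gm25927 (-0.11 and -0.034), for Mir326 (0.18 and 0.077), for Mir27b (0.052 and 0.0012), for Mir223 (0.051 in the 16) and for Mir27a (0.042 in the 48), and the cause was not tested. The sex interaction gave 10 calls with no filter and 0 to 1 with 1 library left out. The 6 against 10 months contrast gave 13 with DESeq2, 16 with no filter and 1 to 4 with 1 library left out, and the 6 against 2 months contrast 68 with no filter and 30 to 41 with 1 library left out. Q175 against Q140 gave 5 with DESeq2, 9 with no filter and 0 to 3 with 1 library left out.

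Same-numbered libraries did not deviate together (correlations -0.215 to 0.171, over 0.1 for F3 alone), so they share only a number. With a replicate block 21 precursors were called at 6 months, 20 of them among the 41, and 1 in the 6 against 10 months contrast, 35 in the 6 against 2 months contrast and 0 for Q175 against Q140.

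Low depth limits Mir708, with at most 5 counts in a Q20 library.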
